A study of Mus musculus with 4 samples.

Results

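The genes described here are 10 immediate early genes, taken by symbol from a table of 16230 genes: the AP-1 genes Fos, Fosb, Jun, Junb, Jund and Atf3, the transcription factor genes Egr1 and Nr4a1, and the feedback genes Zfp36 and Dusp1. All 10 were found in the table and all 10 passed the filter on low values (a mean of at least 1 FPKM). RNA came from splenic CD4 T cells of Rag-/- hosts with colitis, sorted 8 weeks after the hosts had been given naive CD4 T cells. Control donor cells carried floxed ERα alleles (ERafl/fl, 2 libraries), and the other donor cells carried the same alleles with a Cre transgene under Cd4 control (CD4creERafl/fl, 2 libraries). Rag-/- hosts make no mature T or B cells of their own, and keep their NK, myeloid and red cells, in both groups. The labels name no separate host for each library, so the p-values reflect no more than the spread among these 4 libraries, which may be technical. Esr1, the floxed gene, was highest in the second CD4creERafl/fl library (1.96 FPKM), stood at 0.23 FPKM in control 1 and at 0 in the remaining pair. These values are low, do not follow the labels and do not check the genotype. The CD4creERafl/fl group therefore goes by its label here, as the Cre-labelled libraries.

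Immediate early genes are transcribed within minutes of a stimulus, such as antigen receptor engagement, growth factors or cell stress, without new protein synthesis. Kinases of the MAPK family activate factors that are already bound at their promoters, and the products then switch on later genes or shut the response off. Fos and Jun proteins pair through leucine zippers to form AP-1, which together with NFAT drives cytokine genes in T cells. The same genes respond to inflammatory stimuli in macrophages.

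Atf3, Nr4a1 and Zfp36 had higher values in both Cre-labelled libraries than in both controls, by 22.02-fold, 6.51-fold and 2.49-fold in the ratio of group means. Jun, Egr1 and Dusp1 were also higher without overlap, but by smaller margins (1.68-fold to 2.18-fold). The values of Fos, Fosb, Junb and Jund overlapped between the groups, with Junb at 1.08-fold and Jund at 0.776-fold. None of the 10 passed the test over all 12896 genes tested (limma, adjusted p from 0.124 to 0.829). In that test 0.0155% of all genes rose and 0.0388% fell. Higher values without overlap were found for 6 of the 10 genes against 23.2% of all genes tested, and lower values without overlap for 0 of 10 against 25.7%. At an unadjusted p under 0.05 in limma, 4 of the 10 were higher (Atf3, Nr4a1, Zfp36 and Dusp1), against 9.1% of all genes. The 10 genes were chosen with earlier results of these data known, so these comparisons with all genes are descriptions only.

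**Figure D1:**
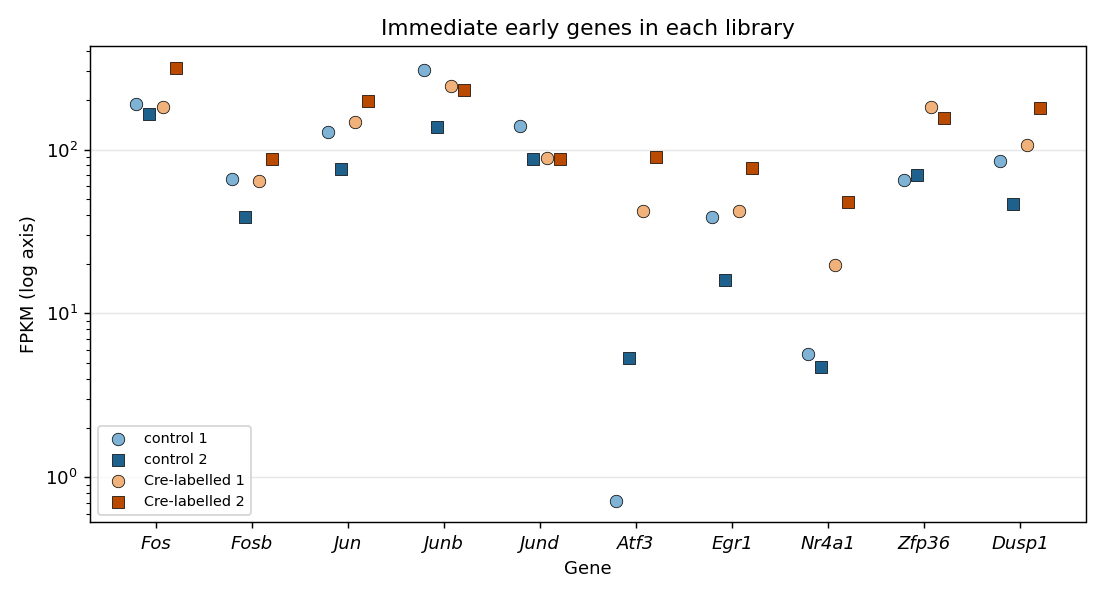
FPKM of each of the 10 genes (x axis) in the 4 libraries, on a log axis; circles are the first and squares the second library of each group, blue for controls and orange for the Cre-labelled libraries. Atf3, Nr4a1 and Zfp36 separate widely by group, whereas control 2 is the lowest point for 8 of the 10 genes.

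Depth set how finely these values could be read. The total was estimated from the steps of low FPKM values at 694000 and 662000 fragments in controls 1 and 2, and at 499000 and 556000 in the Cre-labelled libraries. The values of the 9 genes listed with a single transcript rested on 1 to 377 fragments each. Exact 95% Poisson intervals of these counts, which cover counting error only, were separate between the groups for 3 of the 9 genes: Atf3, Nr4a1 and Zfp36. Such intervals were computed for these 9 genes only, so no share of all genes stands beside this count. Jund is listed with 2 transcripts and has no such estimate.

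Fos (chr12:85473890-85477274, GRCm38.p6, the build of mm10 coordinates) encodes the AP-1 subunit c-Fos, which must pair with a Jun protein to bind DNA. Its level was 191 and 164 FPKM in controls 1 and 2, and 182 and 317 FPKM in the first and second Cre-labelled libraries. Only the second of these stood above the controls, with a counting interval from 285 to 351 FPKM against at most 214.5 in the other 3 libraries. The log2 fold change was 0.44 ± 0.35 (SE; limma adjusted p = 0.57), with a 95% interval from -0.42 to 1.30. Without the second Cre-labelled library it was 0.04. Fosb (chr7:19302696-19310118), whose product FosB is a close relative of c-Fos, had 66.6 and 38.7 FPKM in controls and 64.4 and 87.0 FPKM in the Cre-labelled group. Control 1 and the first Cre-labelled library were nearly level for Fosb, and the log2 fold change was 0.55 ± 0.38 (SE; limma adjusted p = 0.524).

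The 3 Jun genes differed in direction. Jun (chr4:95049036-95052222), which encodes c-Jun, the AP-1 subunit activated by JNK kinases, had 129 and 76.5 FPKM in controls and 147 and 199 FPKM in the Cre-labelled libraries. The groups did not overlap, but the counting intervals of control 1 and of the first Cre-labelled library did. These intervals ran from 114.3 to 144.8 and from 128.7 to 167.1 FPKM. The log2 fold change of Jun was 0.78 ± 0.36 (SE, limma adjusted p = 0.369). Junb (chr8:84976909-84978748), whose product is a weaker activator that can restrain c-Jun, had its highest value of 304 FPKM in control 1 and its lowest of 137 in control 2. The Cre-labelled libraries lay between them, at 244 and 232 FPKM. The log2 fold change of Junb was 0.22 ± 0.42 (SE; limma adjusted p = 0.829), with a 95% interval from -0.82 to 1.26, and it was -0.36 without control 2. Jund (chr8:70697739-70700616), which encodes the Jun protein found in resting cells, had 140 FPKM in control 1 and 87.4 to 88.6 FPKM in the other 3 libraries. Its log2 fold change was -0.32 ± 0.33 (SE; limma adjusted p = 0.658), with a 95% interval from -1.14 to 0.49, and it was 0.01 without control 1. Jund shares 877 exon bases with Gm11175 and Jun 232 with Junos, each on the opposite strand. How the counting treated strand is not stated in the labels, so the fragments of these pairs cannot be told apart.

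Atf3 had the widest difference of the 10. It encodes a stress-induced factor that pairs with Jun proteins and often represses its targets, among them inflammatory genes of macrophages. Atf3 (chr1:191170296-191183333) had 0.72 FPKM in control 1 and 5.32 in control 2, on about 1 and 7 fragments, and 42.4 and 90.6 FPKM in the Cre-labelled libraries, on about 41 and 99. In control 1 it stood at the 9.1 percentile of all genes tested and in control 2 at the 39.2, against 87.4 and 93.8 in the Cre-labelled group. The upper counting limit of the controls was 10.96 FPKM and the lower limit of the other group 30.4 FPKM. On log2(FPKM + 1), which understates changes from low values, the fold change was 4.26 ± 0.73 (SE; limma adjusted p = 0.124), with a 95% interval from 2.43 to 6.08. It was 3.32 without control 1, 5.20 without control 2 and 3.72 without the second Cre-labelled library. Its order over the libraries, lowest in control 1 and highest in the second Cre-labelled library, was that of the summed macrophage and monocyte markers (148 and 545 FPKM in controls, 2726 and 3178 FPKM in the Cre-labelled group). The summed dendritic cell, neutrophil and NK cell markers had the same order. Their part in the result was not tested.

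Egr1 and Nr4a1 encode DNA-binding factors in common use as readouts of recent antigen receptor signalling in lymphocytes. Egr1 (chr18:34861207-34864956), a zinc finger factor induced through ERK and SRF, had 38.5 and 16.1 FPKM in controls and 42.0 and 77.2 FPKM in the Cre-labelled libraries. The groups did not overlap, yet the counting intervals of control 1 (30.6 to 47.9 FPKM) and of the first Cre-labelled library (32.3 to 53.8 FPKM) did. Its log2 fold change of 1.16 ± 0.53 (SE; limma adjusted p = 0.364) was 0.55 without control 2. Nr4a1 (chr15:101253902-101274795) encodes the orphan nuclear receptor Nur77. It had 5.64 and 4.74 FPKM in controls, on about 10 and 8 fragments, and 19.6 and 47.98 FPKM in the Cre-labelled group, on about 24 and 66 fragments. The controls were close to each other and both Cre-labelled libraries lay above them, with counting limits of 10.4 and 12.6 FPKM facing each other across the gap. The log2 fold change was 2.37 ± 0.51 (SE; limma adjusted p = 0.152), with a 95% interval from 1.09 to 3.64. It was 1.74 without the second Cre-labelled library and 2.99 without the first.

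Zfp36 and Dusp1 encode proteins that end the early response. Zfp36 (chr7:28376784-28379228) encodes tristetraprolin, which binds AU-rich elements in the mRNAs of TNF and other cytokines and marks them for decay. It had 65.2 and 70.1 FPKM in controls and 182 and 155 FPKM in the Cre-labelled libraries. Of the 10 genes it varied least within the control group in relative terms, and its log2 fold change was 1.30 ± 0.27 (SE; limma adjusted p = 0.149), with a 95% interval from 0.63 to 1.96. Leaving out any library in turn left it between 1.18 and 1.41. Dusp1 (chr17:26505591-26508472) encodes the phosphatase MKP-1, which inactivates p38 and JNK. It had 85.4 and 46.3 FPKM in controls and 107 and 180 FPKM in the Cre-labelled group, so the gap between control 1 and the first Cre-labelled library was small beside the spread within each group. Its log2 fold change was 1.13 ± 0.43 (SE; limma adjusted p = 0.301), and it was 0.69 without control 2.

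**Figure D2:**
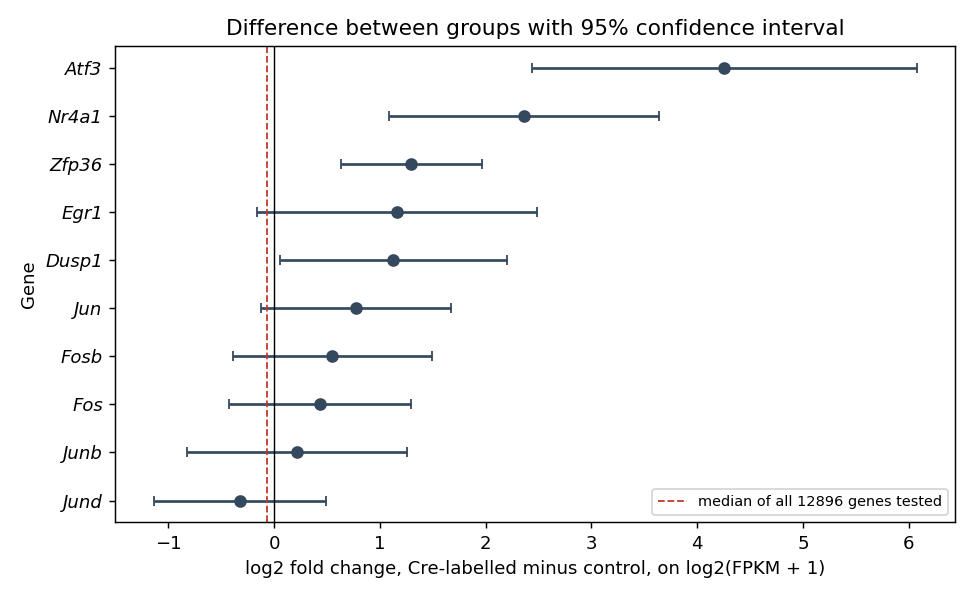
Log2 fold change of each gene on log2(FPKM + 1), Cre-labelled libraries minus control (x axis), with 95% confidence intervals from limma that are not adjusted for the number of genes; the dashed line is the median of all 12896 genes tested, at -0.07. The intervals of Atf3, Nr4a1, Zfp36 and Dusp1 lie above 0, and that of Jund reaches from -1.14 to 0.49.

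With weights that account for depth, 2 of the 9 genes with estimated fragments rose: Zfp36 (log2 fold change 1.30 ± 0.31, SE; adjusted p = 0.038) and Nr4a1 (2.47 ± 0.60, SE; adjusted p = 0.0395), in limma with voom weights. Over all alternatives their adjusted p ranged from 0.00623 to 0.491 and from 0.00623 to 0.537. Atf3 had an adjusted p of 0.0565 in the same fit. In that fit 2.37% of the 6203 genes tested rose and 0.871% fell.

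The promoters of the 3 genes with separate counting intervals are shown with that of Jund, the gene with the lowest ratio, because they stand at the 2 ends of the fold changes. Each sequence is the 250 bases before a RefSeq start site on GRCm38.p6, on the strand of the gene, and capitals mark motif matches. The motifs searched on both strands were the CArG box bound by SRF, the cyclic AMP response element (TGACGTCA) and its core (TGACG), the AP-1 site (TGACTCA) and the EGR site (GCGGGGGCG). The core is contained in the full element, and matches of both were marked. The regions are chr1:191183334-191183583 (minus strand) for Atf3, chr15:101266596-101266845 (plus strand) for Nr4a1, which lies inside the span of the gene, before the start listed in the promoter table and not the outermost one, chr7:28379229-28379478 (minus strand) for Zfp36 and chr8:70697489-70697738 (plus strand) for Jund.
Atf3: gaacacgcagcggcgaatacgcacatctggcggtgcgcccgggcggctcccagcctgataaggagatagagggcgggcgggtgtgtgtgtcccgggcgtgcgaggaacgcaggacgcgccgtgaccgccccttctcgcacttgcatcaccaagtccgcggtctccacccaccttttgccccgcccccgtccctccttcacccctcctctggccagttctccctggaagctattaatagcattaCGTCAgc
Nr4a1: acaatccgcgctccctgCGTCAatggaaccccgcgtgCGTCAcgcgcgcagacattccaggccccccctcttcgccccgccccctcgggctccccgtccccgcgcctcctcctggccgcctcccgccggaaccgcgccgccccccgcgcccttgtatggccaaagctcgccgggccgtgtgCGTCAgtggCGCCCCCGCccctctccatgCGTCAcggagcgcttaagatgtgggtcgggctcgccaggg
Zfp36: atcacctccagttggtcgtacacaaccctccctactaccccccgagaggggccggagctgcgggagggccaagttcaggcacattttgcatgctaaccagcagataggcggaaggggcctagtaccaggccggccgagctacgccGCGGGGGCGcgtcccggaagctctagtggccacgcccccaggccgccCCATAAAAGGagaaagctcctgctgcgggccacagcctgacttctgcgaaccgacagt
Jund: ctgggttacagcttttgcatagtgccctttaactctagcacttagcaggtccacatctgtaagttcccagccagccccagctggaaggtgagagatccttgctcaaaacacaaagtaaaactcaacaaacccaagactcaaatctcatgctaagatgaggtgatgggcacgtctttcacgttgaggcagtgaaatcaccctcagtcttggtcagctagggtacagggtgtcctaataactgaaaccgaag

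The Nr4a1 window held 4 cores of the cyclic AMP response element, at positions -233, -213, -69 and -40 from the start site, and an EGR site at -60. Zfp36 held a CArG box at -58 and an EGR site at -105, Atf3 held 1 core at -7, and Jund held none of the motifs. The Jund window lies before the outermost start of a gene listed with 2 transcripts. The matched Jund exon of 1668 bases does not fill the span of the gene, so the window may not lie beside its start. Of the 10 genes, 9 matched the RefSeq promoter table. Among these 9 windows the core was found in 6 (Atf3, Fosb, Junb, Fos, Nr4a1 and Dusp1), against 17.77% of the 32851 windows of that length in the table. EGR sites were found in 3 of 9 (Fosb, Zfp36 and Nr4a1) against 2.57%, a CArG box in 1 against 1.47%, the full cyclic AMP response element in 1 (Dusp1) against 1.55%, and an AP-1 site in 0 against 4.46%. The windows with matches include genes that overlapped between groups (Fos, Fosb and Junb). A match is a description of these letters only.

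Ranked by FPKM, which is scaled to transcript length, Junb and Fos held the first and second places among the 10 genes in all 4 libraries. Nr4a1 and Atf3 held the lowest places in both controls, whereas in the Cre-labelled libraries Atf3 stood 8th and 6th. Jund, which stood at place 3 in both controls, stood 6th and 7th there. Among the 6 AP-1 genes, Atf3 made up 0.0867% and 1.05% of the summed FPKM in controls 1 and 2, and 5.52% and 8.96% in the Cre-labelled libraries. Jund made up 16.8% and 17.2% in controls and 11.5% and 8.65% in the Cre-labelled group. Jun went from 15.5% and 15.0% to 19.1% and 19.6%, and Fosb kept between 7.6% and 8.6% in all 4 libraries. Fos (23.0% and 32.3%, then 23.7% and 31.3%) and Junb (36.6% and 26.9%, then 31.7% and 22.9%) differed more within groups than between them. These shares are taken within a library and do not depend on how libraries are scaled to each other.

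The genes also varied together between libraries of the same group. Control 2 had the lowest of the 4 values for 8 of the 10 genes (all but Atf3 and Zfp36), against 18.6% of all genes tested. The second Cre-labelled library had the highest value for 7 (Fos, Fosb, Jun, Atf3, Egr1, Nr4a1 and Dusp1), against 25.3%. Within controls the ratio of the second to the first library was between 0.417 (Egr1) and 0.862 (Fos) for those 8 genes, 1.08 for Zfp36 and 7.39 for Atf3. Summed over the 10 genes the level was 1025 and 646 FPKM in controls and 1118 and 1472 FPKM in the Cre-labelled libraries. The median log2 fold change of the 10 genes was 0.95, against -0.07 for all genes tested, and it was 0.48 without control 2. It was 0.64 without the second Cre-labelled library.

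Close relatives of Nr4a1 and Zfp36, named after their values were seen, had values that overlapped between the groups. Nr4a2 and Nr4a3, which encode the other orphan receptors of the family, had 5.05 and 5.71, and 2.51 and 2.35 FPKM in controls, and 3.43 and 6.85, and 0.92 and 2.89 FPKM in the Cre-labelled group. Of the list of other EGR and NR4A genes and their NAB corepressors, 6 of 7 were tested, 0 were higher and 2 were lower without overlap (against 23.2% and 25.7% of all genes tested), and the median log2 fold change was -0.22. The 2 were Egr2, a factor linked to T cell anergy, with 4.32 and 6.04 FPKM in controls and 1.34 and 3 FPKM in the Cre-labelled group (limma adjusted p = 0.423), and Nab1 (limma adjusted p = 0.534). Zfp36l2, which encodes a relative of tristetraprolin, had 110.7 and 36.3 FPKM in controls and 57.7 and 75.5 FPKM in the Cre-labelled group, and Zfp36l1 had 24.9 and 21.1 against 13.98 and 32.9 FPKM. Of the 13 genes of that family and of mRNA decay, 2 were higher and 4 lower without overlap, near the 23.2% and 25.7% of the whole table (median log2 fold change -0.13). By the naming rule these are represented by Cnot1, a scaffold of the deadenylase complex (13.1 and 14.9 against 28.9 and 37.1 FPKM; limma adjusted p = 0.206), and Cnot8, a catalytic subunit (49.4 and 23.7 against 16.7 and 10.6 FPKM; limma adjusted p = 0.287). The differences between the members and their relatives were not tested.

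Of 9 other MAPK phosphatases 8 were tested. Without overlap 1 was higher (against 23.2% of all genes tested) and 2 were lower (against 25.7%), shares no larger than those of the whole table, and the median log2 fold change was -0.45. Dusp3 had 2.53 and 0.82 FPKM in controls and 7.82 and 7.53 FPKM in the Cre-labelled libraries (limma adjusted p = 0.219). Dusp10, which acts on JNK and p38, had 10.5 and 5.53 against 1.47 and 2.63 FPKM (limma adjusted p = 0.261). Upstream, the list of SRF, its partners and MAPK-pathway kinases held 24 tested genes, 6 of them higher (against 23.2% of all genes tested) and 9 lower (against 25.7%) without overlap, with a median of -0.19. Mapk14, which encodes p38α, had 19.0 and 16.1 against 27 and 39.5 FPKM (limma adjusted p = 0.322), and Map2k2, which encodes the ERK activator MEK2, had 14.4 and 11.3 against 7.51 and 4.50 FPKM (limma adjusted p = 0.334).

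Among 24 other leucine zipper genes that pair with or resemble AP-1 subunits, 23 were tested, 11 were higher and 3 lower without overlap, beside 23.2% and 25.7% of the whole table, and the median log2 fold change was 0.38. Batf, whose product pairs with Jun proteins in activated T cells, had 63.4 and 85.2 FPKM in controls and 15.8 and 6.10 FPKM in the Cre-labelled group (log2 fold change -2.77 ± 0.50, SE; limma adjusted p = 0.129). Maff, which encodes a small Maf protein, had 14.2 and 13.1 against 42.6 and 49.1 FPKM (limma adjusted p = 0.139). Batf and Atf3 thus had opposite signs. Batf was among the 3 genes of this leucine zipper list that were lower without overlap. Batf3 (0 and 6.57 against 52.3 and 41.75 FPKM), Fosl2 and Jdp2, named after their values were seen, were among the 11 that were higher. Of 36 further early response genes 34 were tested, 13 were higher (against 23.2% of the whole table) and 8 lower (against 25.7%) without overlap, and the median was 0.26. Cd69, an early surface marker of lymphocyte activation, had 39.2 and 29.0 FPKM in controls and 6.20 and 5.56 FPKM in the Cre-labelled libraries (log2 fold change -2.34 ± 0.36, SE; limma adjusted p = 0.12). Klf4, an early factor of myeloid cells, had 9.80 and 10.8 against 38.3 and 37.9 FPKM (log2 fold change 1.80 ± 0.32, SE; limma adjusted p = 0.129). Heat shock genes, which mark another form of acute stress, had 0 higher and 4 lower without overlap of 10 tested (against 23.2% and 25.7% of all), with a median of -0.14. Hspa8 had 417 and 545 against 749 and 533 FPKM, and Hsp90aa1 250 and 275.4 against 151 and 244 FPKM. In limma 0 genes of these lists rose or fell over all genes tested, and Klf4 was among those that rose with voom weights (adjusted p = 0.0172).

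**Figure D3:**
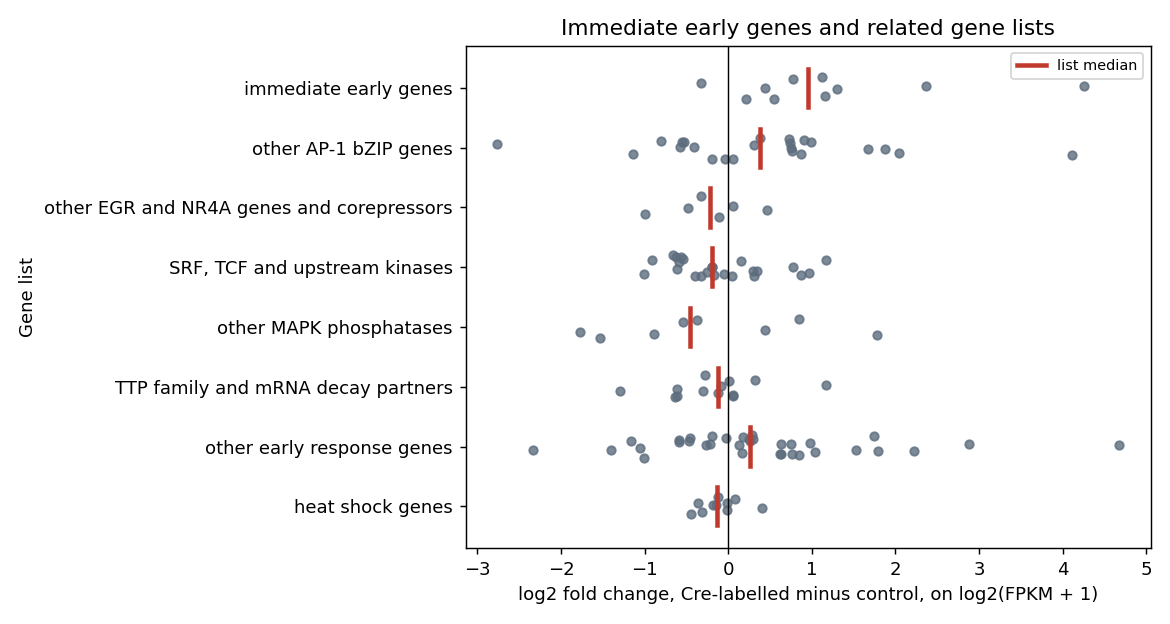
Log2 fold change on log2(FPKM + 1), Cre-labelled libraries minus control (x axis), of each tested gene in 8 lists (rows); red bars are list medians. The immediate early genes have a median of 0.95, and the medians of the other 7 lists lie between -0.45 and 0.38.

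Markers of several cell types differed between the groups. All 15 T cell markers were lower without overlap in the Cre-labelled libraries, against 25.7% of all genes tested. Their summed levels were 1759 and 1402 FPKM in controls 1 and 2 and 431 and 356 FPKM in the Cre-labelled group. Of 20 macrophage and monocyte markers 19 were tested and 17 were higher without overlap, against 23.2% of all genes tested. The sums of that list were 148 to 545 FPKM in controls and 2726 to 3178 FPKM in the Cre-labelled group. Ccr2 (31.3 and 31.2 against 12.4 and 31.2 FPKM) and Ly6c2 (4.05 and 38.1 against 21.1 and 24.7 FPKM), named after their values were seen, overlapped. Cd247 and Cd3d, of the T cell receptor complex, had 213 and 237, and 178 and 146 FPKM in controls against 101.5 and 75.9, and 124 and 70.9 FPKM. Among macrophage markers Lyz2 had 50.7 and 162 against 548 and 1304 FPKM and Hmox1 7.94 and 41.7 against 399 and 453 FPKM. Adgre1, Mertk, Marco, Fcgr1 and Cd14 were listed at 0 in control 1, and Vsig4 was at 0 in 3 libraries. Dendritic cell markers, led by Cd74 and H2-Ab1, summed to 128 to 1304 FPKM in controls and 4063 to 4161 FPKM in the Cre-labelled group. Neutrophil markers, led by S100a9 and S100a8, summed to 2074 to 4348 and 5770 to 7731 FPKM. Of the 12 neutrophil markers tested, 6 were higher without overlap (against 23.2% of all genes tested) and 0 were lower. Outside control 1, most of the dendritic cell sum came from Cd74, H2-Ab1 and H2-Aa of MHC class II antigen presentation. Xcr1 of that list was lower without overlap (73.4 and 62.8 against 46.7 and 48.5 FPKM), and Zbtb46 and Siglech overlapped; these were named after their values were seen. Ncr1, Klra8 and Klre1 of NK cells were listed at 0 in both controls and above 0 in both Cre-labelled libraries, where Gzma was also higher (0 and 12.3 against 32.7 and 94.3 FPKM) and Eomes lower (27.1 and 33.3 against 16.5 and 17.5 FPKM). Ms4a1 of B cells was at 0 in 3 libraries, and Cd22 and Fcer2a had 51.7 and 65.9, and 17.5 and 16.6 FPKM in controls against 199 and 76.3, and 1.27 and 11.0 FPKM. Red cell transcripts, led by Hbb-bs and Hba-a1, set control 1 apart, at a sum of 221 FPKM against 5242 to 8395 FPKM in the other 3. Control 2, which had lower values than control 1 for 8 of the 10 genes, also had the lower T cell sum and the higher macrophage sum. In bulk RNA, fewer T cells and less of a transcript per T cell cannot be told apart, and which cells carried the transcripts of the 10 genes was not tested.

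**Figure D4:**
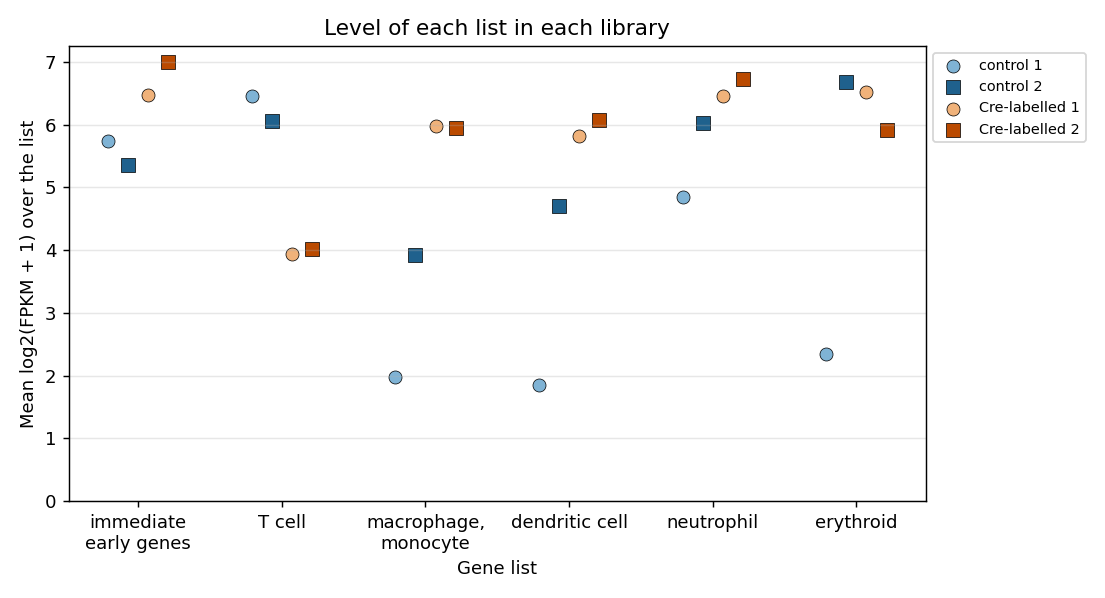
Mean log2(FPKM + 1) over the members of each list (x axis) in each library, with circles for the first and squares for the second library of a group, blue for controls and orange for the Cre-labelled libraries. T cell markers are higher in controls, macrophage and dendritic cell markers are higher in the Cre-labelled group, and the immediate early genes are lowest in control 2.

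Jund kept its sign with median-ratio scaling (-0.26) and quantile normalization (-0.36). When libraries were scaled to the T cell markers, the median log2 fold change of all genes moved from -0.07 to 1.86, and 10 of the 10 genes rose, as did 8347 of the 12896 genes tested. On that scale the 10 genes had a median of 3.19, which is 1.34 above all genes, compared with 1.02 above them without this scaling. Jund stood at 1.93, so that its change of sign went with the shift of all genes, and Atf3 at 5.96. That scale divides every gene of a library by the same factor, and the pseudocount of 1 was added after the division. Low values therefore shifted less than high values, so the gap above all genes cannot be compared between the scales.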

How the data were processed

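Gene expression was measured by RNA sequencing in 4 libraries of sorted splenic CD4 T cells, 2 per group. The authors deposited a table of FPKM values (fragments scaled to transcript length and library size). Per the submitters' processing notes, the authors used HISAT, Bowtie2 and RSEM with the build mm10; no version is given there. The table holds no counts.

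Genes with a mean of at least 1 FPKM (12896 of 16230) went into a two-sided limma test of group alone (limma 3.58.1, R 4.3.3) on values of log2(FPKM + 1), with a mean-variance trend and Benjamini-Hochberg adjustment over all of them; genes with an adjusted p under 0.05 were said to rise or fall. Fold changes are Cre-labelled minus control. With 2 against 2 libraries an exact permutation test of a single gene cannot go below p = 0.33, so none is given.

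Depth was estimated from genes with 1 transcript over 800 bases, using GENCODE M21 lengths cut to the RefSeq gene: 79.9% to 81.3% of low values lay within 0.2 of a whole fragment. These fragments served for counting intervals and, in genes with a mean of at least 5 fragments, for voom weights. The 281 genes whose GENCODE transcript exceeds the RefSeq gene were left out there, except members. The limma and voom fits were tried on simulated fragments drawn at the estimated depths. Neither the depth estimate nor a shift in cell types was simulated, and the outcome of these trials is not given here. Words of 50 bases found no shared sequence of members outside the antisense overlaps given. Table identifiers matched RefSeq for 16183 genes, and 23 symbols turned into dates were restored.

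The members and gene lists were chosen with earlier results of these data known. Named genes are all members, and from each related list the 2 with the smallest unadjusted p, since none passed the test. From marker lists the naming rule took the 2 with the highest mean. Alternatives were other pseudocounts, filters, scalings, variance models, voom weights, a replicate block and leaving out each library. Of the 2 related genes that passed the test with voom weights, 1 is not reported here.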

Additional observations from a re-analysis of the deposited data

How the results depend on the processing

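Of 149 values of single members under the other settings, 135 kept their direction and their side of the threshold and 11 passed it (9 with scaling to T cell markers, and Nr4a1 and Zfp36 with voom weights). The other 3 changed sign: Jund to 1.93 with scaling to T cell markers and to 0.0103 without control 1, and Junb to -0.355 without control 2. Leaving out each library gave -0.659 to 0.0103 for Jund and -0.355 to 0.791 for Junb. The cause was not tested.

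The number of genes past the threshold was 7 of 12896. It was 0 with a pseudocount of 0.1, no filter, no trend, the replicate block or without any library in turn, where 1813, 2190, 1996, 1888 and 1234 to 2042 genes had an unadjusted p under 0.05 in limma. It was 4 with a pseudocount of 5 or a mean of at least 5 FPKM, 201 with voom weights and 8392 with scaling to T cell markers. Members past the threshold were 0, 2 with voom weights and 10 with scaling to T cell markers, and related genes 0, 2 and 87. The members' median log2 fold change was 0.95, 3.19 with scaling to T cell markers, and 0.478 to 1.20 when a library was left out. The labels do not say whether libraries of equal replicate number share an animal, litter or day. Their deviations correlated at -0.00161 across genes, which cannot exclude a factor shared in some genes only. The replicate block changed no member's call.

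Low depth limits Atf3 and Nr4a1 in controls, which rest on 1 to 10 fragments a value.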

Other observations

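Early response genes outside the 10 members, chosen after their values were seen, lay on both sides. Il1b, the inflammatory cytokine of myeloid cells, had 0 and 11.3 FPKM in controls and 65.8 and 119.6 FPKM in the Cre-labelled libraries (limma adjusted p = 0.174). Cxcl2, a neutrophil chemokine, had 0 and 2.83 against 7.5 and 23.6 FPKM (limma adjusted p = 0.217), and Ptgs2, which encodes cyclooxygenase 2, had 0.32 and 2.01 against 3.99 and 16.3 FPKM (limma adjusted p = 0.274). Ier3 had 5.35 and 7.02 against 26.1 and 20.1 FPKM, and Rhob 12.7 and 8.63 against 29.1 and 35.6 FPKM. In the other direction, Bhlhe40, a factor of cytokine-producing T cells, had 67.4 and 51.4 against 23.6 and 34.9 FPKM (limma adjusted p = 0.263), and Tnfaip3, an inhibitor of NF-κB signalling, had 97.1 and 44.0 against 15.2 and 38.0 FPKM (limma adjusted p = 0.325). Tnf, whose mRNA tristetraprolin destabilises, had 15.3 and 38.7 against 18.8 and 30.5 FPKM, with overlap between the groups. None of these passed the test.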
